A study of Mus musculus with 12 samples.

Results

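The tumor necrosis factor (TNF) ligand superfamily and its receptor superfamily were examined in cultured stromal cells of the mouse small intestine. Members were taken by gene symbol, as the numbered Tnfsf ligands and Tnfrsf receptors together with Tnf, Lta, Ltb, Ltbr, Fas, Fasl, Cd27 and Cd70, and needed a count in any library. The rule found 39 of the 23329 genes listed, of which 16 were ligands and 23 were receptors. Of these, 25 members, 9 ligands and 16 receptors, were abundant enough in at least 1 group to be tested. The other 14 members stayed under the filter and were described by their levels.

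Stromal cells were grown from the small intestine of E14.5 embryos or of adult mice on the C57BL6/J background. They received lipopolysaccharide (LPS) of Escherichia coli O111:B4, a cell wall component of Gram-negative bacteria, at 10 µg/µl as given in the labels (the methods give LPS per ml for another assay, so the unit is uncertain), or the vehicle phosphate-buffered saline (PBS), for 6 h before polyA RNA was sequenced. The groups were embryonic PBS, embryonic LPS, adult PBS and adult LPS, with 3 libraries in each. The labels name no transgene or deletion in any group, and all cells had been passaged in culture before treatment. Per the methods there were 3 independent cultures per stage, from 3 adult mice or with 6 embryos pooled in each embryonic culture. The age of the adult mice was not given in the sources used here.

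The cells were labelled as intestinal myofibroblasts. Fibroblast markers (6 of 6 listed, Pdgfra, Col1a1, Col1a2, Col3a1, Dcn and Lum) summed to between 7969 and 23309 CPM (read counts scaled to library size) and smooth muscle and myofibroblast markers (5 of 5) to between 12822 and 27246 CPM. The cultures were not free of other cells. The summed macrophage markers (11 of 12 listed genes) ran from 214 to 2168 CPM in embryonic PBS and from 147 to 1424 CPM in embryonic LPS libraries, highest in culture 3 of both, against 39.8 to 107 CPM in the adult libraries. The summed endothelial markers were 1791 and 1720 CPM in both libraries of adult culture 2, 378 and 352 CPM in those of adult culture 3, and at most 34.7 CPM in the other 8 libraries. T, B and NK cell markers summed to at most 0.466 CPM, with Cd3g and Ncr1 at 0 in every library, and neutrophil and mast cell markers to at most 0.482 CPM, with S100a9 and Mcpt4 at 0. Epithelial markers summed to between 7.47 and 59.5 CPM, of which most in every library was Krt20, at 7.04 to 59.1 CPM. Epcam, Vil1 and Cldn7 stayed at or under 0.488 CPM and Cdh1 at or under 1.11 CPM. Glia and neuron markers summed to between 0.701 and 10.8 CPM.

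TNF superfamily ligands are mostly trimeric membrane proteins, some of which are shed by proteases, and each binds 1 or a few receptors of the matching family. Receptors with a cytoplasmic death domain, such as Fas and Tnfrsf1a, can start caspase signalling, whereas most others recruit TRAF adaptors and switch on NF-kB, and a few are decoys that bind ligand without signalling. In the intestine the families are known for inflammation (Tnf), organization of lymphoid tissue (lymphotoxins and Tnfsf11) and costimulation of T cells.

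The promoters of 5 members are shown because their transcripts changed most clearly with LPS or differed most between the stages. Each sequence is the 250 bases before the RefSeq start, read 5′ to 3′ on the strand of the gene (RefSeq, GRCm38.p6). The windows lay at chr17:35202008-35202257 (minus strand) for Tnf, at chr3:27316827-27317076 (plus) for Tnfsf10, at chr14:78308044-78308293 (minus) for Tnfsf11, at chr19:34290409-34290658 (plus) for Fas and at chr4:145246871-145247120 (minus) for Tnfrsf1b. The genes themselves span chr17:35199367-35202007 (Tnf), chr3:27317077-27339665 (Tnfsf10), chr14:78277446-78308043 (Tnfsf11), chr19:34290647-34327775 (Fas) and chr4:145212368-145246870 (Tnfrsf1b). The Fas window ends just inside the span listed for the gene. Capitals mark matches on either strand to 1 of 4 patterns, which were the NF-kB consensus site, the STAT site TTCNNNGAA, the IRF element (GAAA and GAAA with any 2 bases between) and the TATA box TATAAA.
Tnf promoter: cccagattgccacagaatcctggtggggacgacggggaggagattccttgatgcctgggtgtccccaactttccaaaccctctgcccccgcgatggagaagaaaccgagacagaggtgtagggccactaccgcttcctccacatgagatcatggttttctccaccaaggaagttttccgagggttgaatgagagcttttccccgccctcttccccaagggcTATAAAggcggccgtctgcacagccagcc
Tnfsf10 promoter: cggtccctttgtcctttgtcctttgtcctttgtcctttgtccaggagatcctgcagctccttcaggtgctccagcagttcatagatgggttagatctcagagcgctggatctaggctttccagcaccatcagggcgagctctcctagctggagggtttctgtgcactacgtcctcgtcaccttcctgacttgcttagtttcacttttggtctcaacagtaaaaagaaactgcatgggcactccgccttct
Tnfsf11 promoter: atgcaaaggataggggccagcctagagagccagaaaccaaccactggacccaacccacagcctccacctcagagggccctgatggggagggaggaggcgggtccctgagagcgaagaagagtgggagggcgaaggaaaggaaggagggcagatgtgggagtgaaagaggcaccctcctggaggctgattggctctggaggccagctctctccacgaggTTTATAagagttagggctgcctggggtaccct
Fas promoter: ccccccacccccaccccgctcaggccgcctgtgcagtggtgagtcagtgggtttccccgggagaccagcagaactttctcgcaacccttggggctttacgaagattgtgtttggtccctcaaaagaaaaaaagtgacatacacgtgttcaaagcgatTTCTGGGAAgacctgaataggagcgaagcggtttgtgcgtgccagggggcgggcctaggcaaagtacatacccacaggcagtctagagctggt
Tnfrsf1b promoter: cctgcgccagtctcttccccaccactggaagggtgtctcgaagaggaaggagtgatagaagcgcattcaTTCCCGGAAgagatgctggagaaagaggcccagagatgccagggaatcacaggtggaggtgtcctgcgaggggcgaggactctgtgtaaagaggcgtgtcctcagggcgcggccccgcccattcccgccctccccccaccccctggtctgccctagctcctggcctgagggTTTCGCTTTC
A TATA box match stood 29 to 24 bases before the start of Tnf and 32 to 27 bases before that of Tnfsf11. A STAT pattern was found in the Fas and Tnfrsf1b windows, and the IRF pattern in the last 10 bases of the Tnfrsf1b window. The Tnfsf10 window held none of the 4 patterns, and none of the 5 windows held the NF-kB consensus. Of all 32851 RefSeq windows of this length, 7.25% held the NF-kB consensus, 7.02% the STAT site, 2.98% the IRF element and 12.4% the TATA box. Among the 31 members with a window, a match was present in 4, 8, 4 and 6 members, in the same order. A match is a description of the letters and not a binding site.

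Levels were compared between genes as CPM per kilobase of exon. Without LPS, the ligand genes of the stroma with the highest mean levels were Tnfsf18, Tnfsf15 and Tnfsf12 in both stages, as the heat map of the members shows. Tnfsf18, the ligand of the costimulatory receptor Tnfrsf18, reached 146 ± 43.7 CPM per kb (SD, n = 3) in embryonic and 104 ± 12.5 CPM per kb in adult PBS libraries, 80.4% and 62.8% of the summed ligand level. Tnfsf12, which binds Tnfrsf12a, was far lower, at 8.63 ± 1.89 and 9.69 ± 0.898 CPM per kb. Tnfsf15 was at 21.5 ± 31.4 and 50.0 ± 33.7 CPM per kb. Its embryonic mean rested on culture 2, at 193 CPM against 14.9 and 7.71 CPM in cultures 1 and 3. With LPS the order changed in the embryonic libraries, where Tnf rose to the top at 901 ± 918 CPM per kb and made up 74.4% of the summed ligand level. This mean rested largely on culture 3, at 3151 CPM against 240 and 1037 CPM in cultures 1 and 2. In culture 1 Tnfsf18 was at 296 CPM, also before division by length. In adult LPS libraries Tnf was the third ligand at 20.8 ± 17.5 CPM per kb, behind Tnfsf18 and Tnfsf15, and made up 8.52%.

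The receptor genes kept a steadier order at the top. Tnfrsf12a, a small receptor that binds Tnfsf12, was the most abundant receptor in all 4 groups, between 158 ± 70.7 CPM per kb in embryonic PBS and 183 ± 34.6 CPM per kb in adult LPS libraries. Tnfrsf11b, the secreted decoy osteoprotegerin that binds Tnfsf11 and Tnfsf10, came next in all 4 groups, between 87.2 ± 16.3 and 121 ± 23.1 CPM per kb. Ltbr, the lymphotoxin receptor, and Tnfrsf1a, the broadly expressed TNF receptor with a death domain, followed in PBS libraries at 41.5 ± 3.64 and 37.0 ± 6.55 CPM per kb in embryonic and 41.5 ± 3.87 and 48.8 ± 3.03 CPM per kb in adult cultures. In LPS libraries Fas took the third place in both stages, at 73.8 ± 21.5 and 90.8 ± 7.32 CPM per kb. Tnfrsf1b moved from rank 8 with PBS to rank 4 with LPS in embryonic cultures (5.41 ± 4.67 and 55.8 ± 53.2 CPM per kb). In adult cultures it moved from rank 8 to rank 5 (10.3 ± 3.99 and 40.4 ± 28.2 CPM per kb). The cognate ligand of Fas was near absent, with Fasl at no more than 0.0615 CPM in any library.

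**Figure D1:**
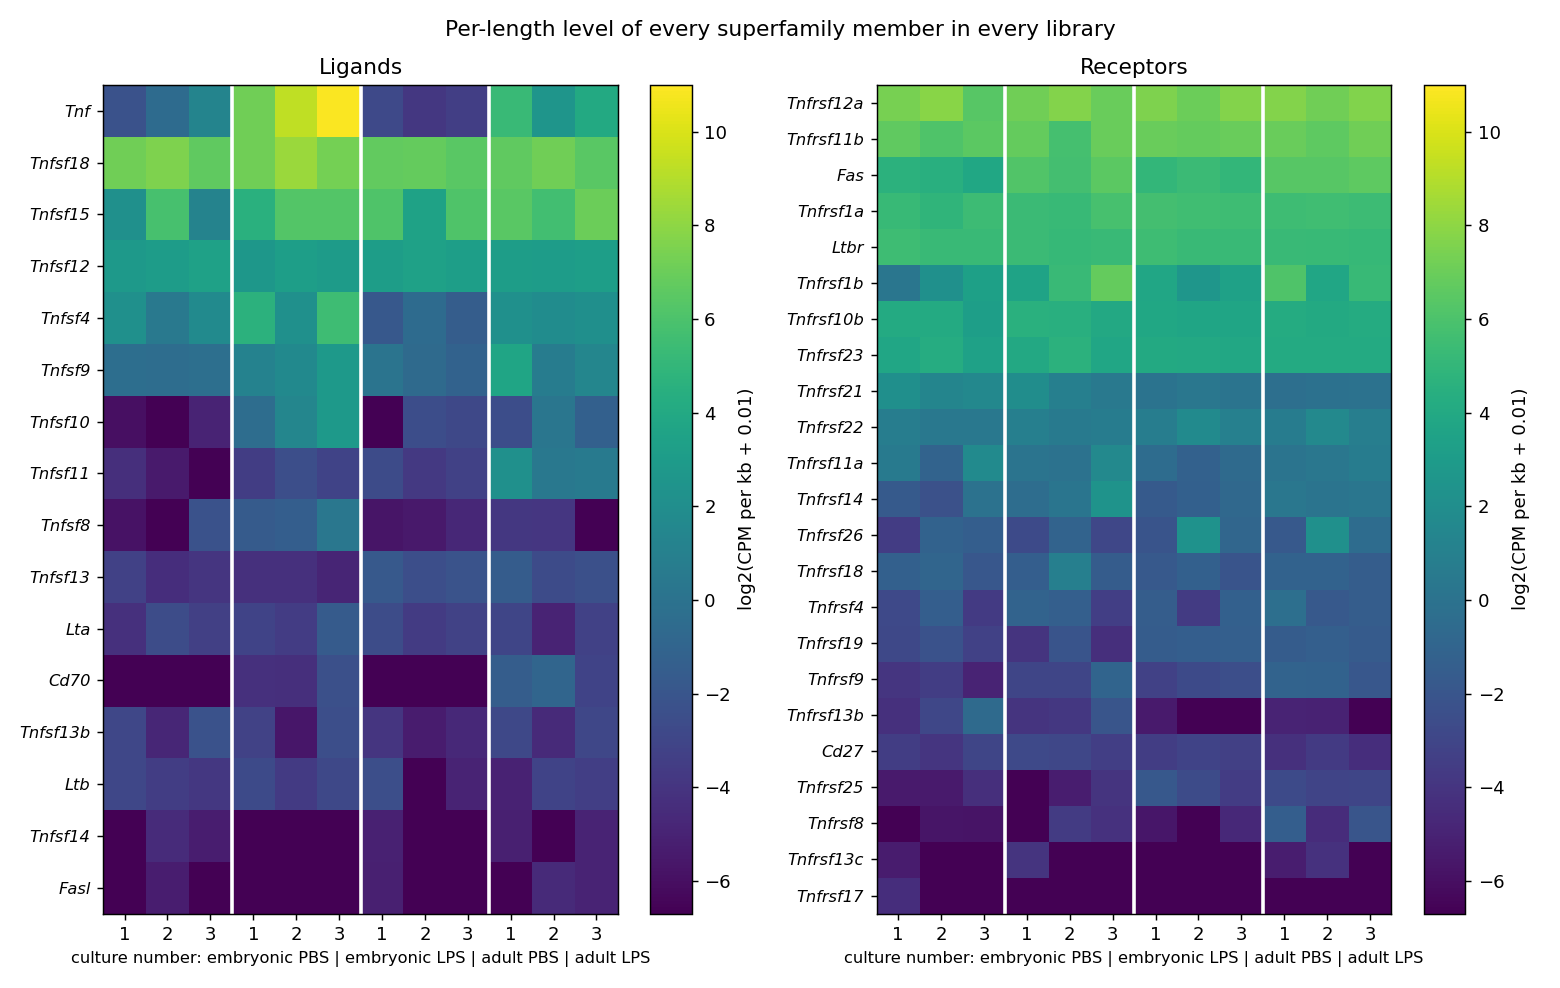
Heat map of log2(CPM per kb + 0.01) for the 16 ligands and 23 receptors (rows, ordered by their mean) in the 12 libraries (columns, 3 cultures per group). Tnf changes from rank 5 of the 16 ligands in embryonic PBS (mean 1.09 CPM per kb) to the brightest row in the embryonic LPS columns. Tnfrsf12a and Tnfrsf11b stay the brightest receptors throughout.

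In embryonic cultures LPS raised 3 of the 25 tested members, Tnf, Tnfsf10 and Fas, and lowered none (edgeR quasi-likelihood test, Benjamini-Hochberg adjusted p under 0.05 over 13038 genes). Of all genes tested, 2.67% were called higher and 0.0767% lower. In adult cultures LPS also raised 3 members, Tnf, Tnfsf11 and Fas, and lowered none, where 0.598% of all genes were called higher and 0.00767% lower. The median log2 fold change of the tested members was 0.52 in embryonic and 0.43 in adult cultures, against -0.00 and -0.01 over all genes tested. Tnf, Tnfsf8, Tnfsf10, Tnfsf11, Tnfrsf9, Tnfrsf14 and Tnfrsf18 passed the filter (over 0.5 CPM in all libraries of a group) only through LPS groups. Their rise with LPS, and the medians and LPS counts that hold them, were thus partly fixed by the filter. All genes tested met the same filter. Same-numbered PBS and LPS libraries of a stage deviated together, and with the culture number as a block 10 members were called higher in embryonic and 9 in adult cultures and none lower, against 9.43% and 4.69% of all genes. The members called with the block in both stages were Fas, Tnf, Tnfrsf10b, Tnfrsf14, Tnfrsf1b, Tnfsf10, Tnfsf4 and Tnfsf9. In bulk RNA, fewer cells of a type and less RNA per cell cannot be told apart.

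The adult calls without the block depended on single libraries. The count of 3 fell to 0 without the adult LPS library of culture 1 or without any 1 of the 3 adult PBS libraries, and to 1 without the adult LPS library of culture 3 or the embryonic PBS library of culture 2. The embryonic count was between 2 and 4 with 1 of the 12 libraries left out, but 0 when the fit held only the 2 embryonic groups (Tnf 9.67, adjusted p = 0.116, Fas 1.82, adjusted p = 0.124, and Tnfsf10 8.36, adjusted p = 0.107).

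Counted by pairs, 12 tested members were higher with LPS in 6 of 6 same-numbered pairs (48.0% of those tested, against 13.0% of all genes). Besides the 8 above these were Tnfrsf23, Tnfrsf9, Tnfsf11 and Tnfsf15. Of the 12, Tnf, Tnfsf10, Tnfsf11, Tnfrsf9 and Tnfrsf14 passed the filter only through LPS groups, so that their place here was partly fixed by it. Ltbr and Tnfrsf21 were lower in 6 of 6 pairs (2 of 25 members, against 9.39% of all genes), and neither passed the test in either stage. Counted by groups, the 3 LPS libraries were all above the 3 PBS libraries for 9 members in embryonic (7.58% of all genes) and 10 in adult cultures (9.1%), and all below for Tnfrsf21 in adult cultures (5.39%). The members counted as above also included some that passed the filter only through LPS groups.

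Tnf, the cytokine that gives the family its name, had the largest LPS difference of the members in both stages. In embryonic PBS libraries it was at 0.331, 1.13 and 3.89 CPM in cultures 1, 2 and 3, and in embryonic LPS libraries at 240.3, 1037 and 3151 CPM. In adult PBS libraries it was at 0.22, 0.0964 and 0.136 CPM (2 to 6 reads each), and in adult LPS libraries at 65.6, 9.47 and 27.4 CPM. PBS and LPS libraries did not overlap in either stage, and every embryonic LPS library was above every adult one. The log2 fold change was 9.69 ± 1.39 (SE, edgeR adjusted p = 0.00603) in embryonic and 7.75 ± 1.44 (adjusted p = 0.0472) in adult cultures. The embryonic order followed the macrophage markers in LPS libraries, with culture 3 the highest for both and culture 1 the lowest, and in adult LPS libraries culture 1 was the highest for both. For adult LPS cultures 2 and 3 the order of Tnf was that of most single macrophage markers but not of their sum. Most of that sum in culture 2 was the marker Mertk, at 37.0 CPM. The part of macrophages in the level of Tnf was not tested. Without both libraries of embryonic culture 3 the embryonic change of Tnf was 9.72 (edgeR adjusted p = 0.00769), and without those of adult culture 2 the adult change was 8.0 (adjusted p = 0.21, and 1.37e-05 with the block).

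Tnfsf10, a death ligand better known as TRAIL, was nearly silent without LPS. Embryonic PBS libraries held 0.0301, 0 and 0.12 CPM, 5 reads in all, and embryonic LPS libraries held 3.96, 14.1 and 36.3 CPM. Adult PBS libraries held 0, 0.867 and 0.682 CPM and adult LPS libraries held 0.847, 6.24 and 2.12 CPM. The embryonic groups were far apart, whereas the lowest adult LPS library lay under the highest adult PBS library. The log2 fold change was 8.38 ± 1.57 (edgeR adjusted p = 0.0195) in embryonic and 2.59 ± 1.18 (adjusted p = 0.907) in adult cultures, the latter 2.54 ± 0.46 (adjusted p = 0.0179) with the block, and 2.27 (adjusted p = 0.158) with the block but without both libraries of adult culture 2. The order of the cultures for Tnfsf10 was that of the macrophage markers in embryonic LPS libraries and, with either treatment, that of the endothelial markers in adult libraries, and the part of these cells in its level was not tested. The embryonic call was lost without both libraries of embryonic culture 3 (8.81, adjusted p = 0.0932), and was kept there with the block (8.78, adjusted p = 0.000341).

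Tnfsf11, the osteoclast and lymphoid-tissue cytokine RANKL, was highest in adult LPS libraries. Embryonic PBS libraries held 0.0904, 0.0305 and 0 CPM and embryonic LPS libraries 0.175, 0.38 and 0.233 CPM. Adult PBS libraries held 0.33, 0.145 and 0.205 CPM and adult LPS libraries 10.1, 2.86 and 3.33 CPM. Every adult LPS library was above every other library. The log2 fold change was 4.54 ± 0.71 (edgeR adjusted p = 0.0215) in adult and 2.59 ± 0.87 (adjusted p = 0.218, 0.0546 with the block) in embryonic cultures. Without both libraries of adult culture 2 the adult change of Tnfsf11 was 4.63 (adjusted p = 0.132, and 0.00495 with the block). The embryonic libraries had 4 reads with PBS and 22 with LPS, a ratio of 6.57 per depth with an exact 95% counting interval of 2.23 to 26.2.

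**Figure D2:**
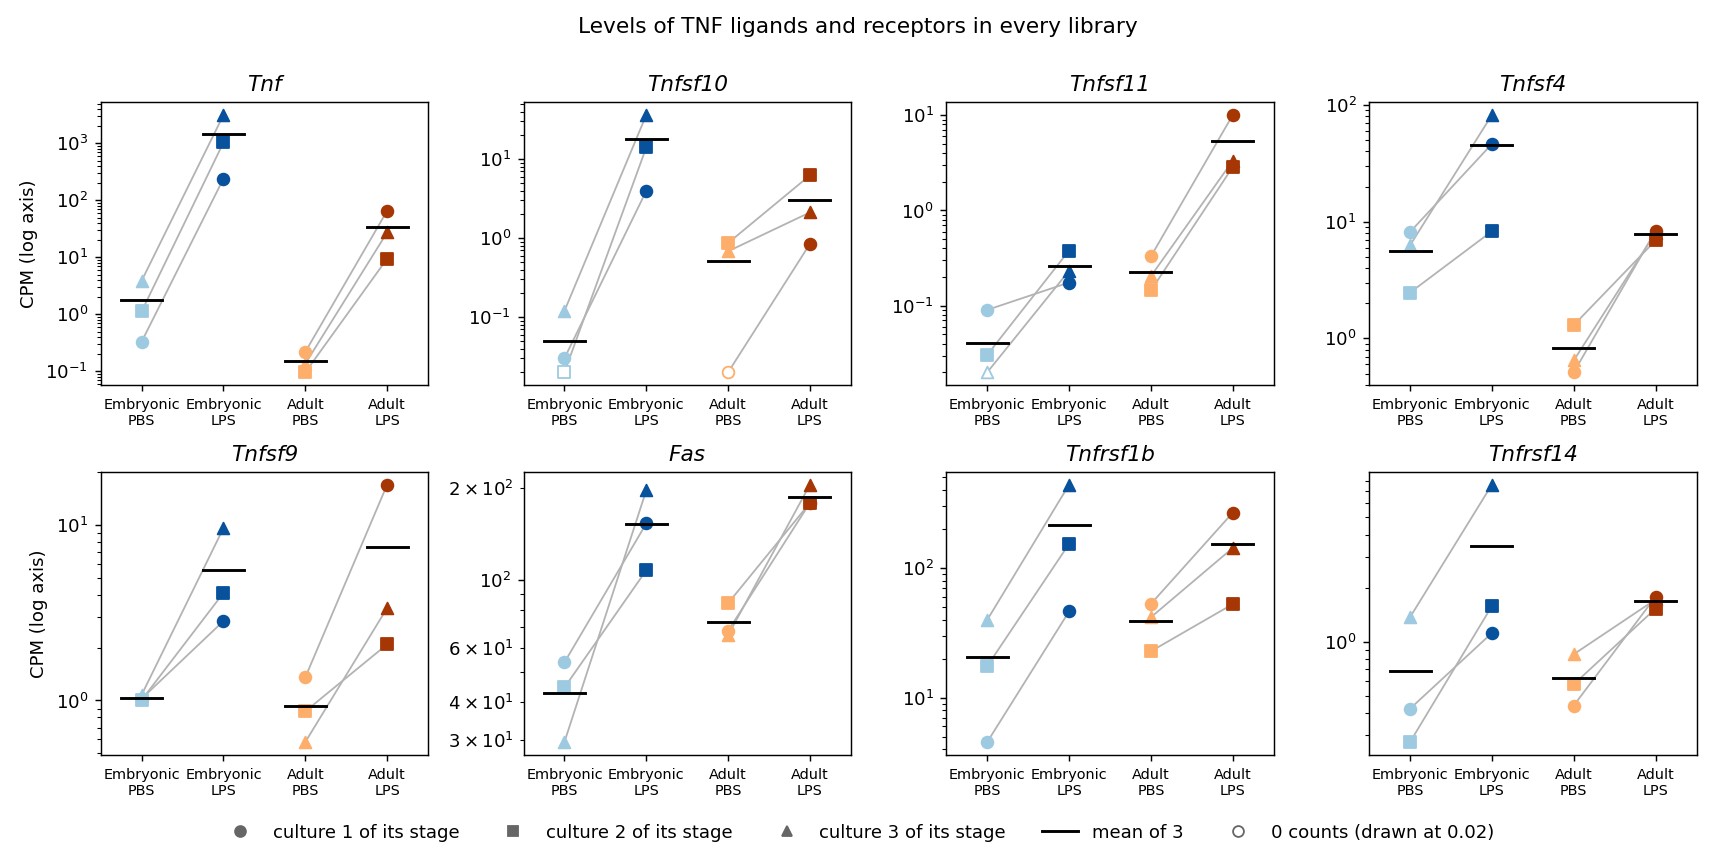
CPM (log axis) of 8 members in each of the 12 libraries. Symbols mark the culture number, grey lines join the PBS and LPS library of a culture, black bars are means of 3, and open symbols are libraries with 0 counts, drawn at 0.02. All lines rise from PBS to LPS; Tnf and Tnfsf10 end highest in embryonic LPS libraries, and Tnfsf11 ends highest in adult LPS libraries.

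The costimulatory ligands Tnfsf4 and Tnfsf9 missed the threshold without the block and passed with it in both stages, and DESeq2 without a block also called both in both stages. Tnfsf4, the ligand of Tnfrsf4 on activated T cells, was at 8.17, 2.47 and 6.28 CPM in embryonic PBS and at 46.3, 8.29 and 82.1 CPM in embryonic LPS libraries. In adult cultures it was at 0.513, 1.3 and 0.648 CPM with PBS and at 8.34, 6.92 and 8.08 CPM with LPS. Neither stage overlapped between treatments, and the adult LPS libraries lay near the upper end of the embryonic PBS libraries. Tnfsf4 had a log2 fold change of 3.01 ± 0.72 (edgeR adjusted p = 0.0602, with the block 2.72 ± 0.36 and 0.00235) in embryonic and 3.26 ± 0.77 (adjusted p = 0.131, with the block 3.30 ± 0.46 and 0.00505) in adult cultures.

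Tnfsf9, the ligand of Tnfrsf9, was even across PBS libraries, at 1.02, 1.01 and 1.08 CPM in embryonic and 1.36, 0.867 and 0.58 CPM in adult cultures. With LPS it was at 2.84, 4.11 and 9.63 CPM in embryonic and 17.0, 2.09 and 3.37 CPM in adult libraries. Every LPS library was above every PBS library of its stage. Tnfsf9 had a log2 fold change of 2.41 ± 0.77 (edgeR adjusted p = 0.182, with the block 2.25 ± 0.44 and 0.0149) in embryonic and 3.00 ± 0.79 (adjusted p = 0.191, with the block 2.67 ± 0.48 and 0.0181) in adult cultures. The embryonic call with the block was lost without both libraries of culture 3 (1.72, adjusted p = 0.0589).

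Tnfsf8, the ligand of Tnfrsf8, was at 0.0301, 0 and 0.777 CPM in embryonic PBS and at 1.23, 1.42 and 4.74 CPM in embryonic LPS libraries. Adult libraries of either treatment held at most 0.228 CPM. The embryonic log2 fold change of Tnfsf8 was 3.16 ± 1.19 (edgeR adjusted p = 0.299), and 3.53 ± 0.67 (adjusted p = 0.0124) with the block. The embryonic PBS library of culture 3 held 26 of the 27 embryonic PBS reads, and without both libraries of that culture the change was 6.06 (adjusted p = 0.0478).

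Among receptors, Fas, the death receptor for Fasl, was the only one to pass in either stage in the edgeR fit of all 12 libraries without the block. DESeq2 also called Tnfrsf1b in embryonic cultures (3.37, adjusted p = 0.00179). Fas was at 53.7, 44.5 and 29.5 CPM in embryonic PBS and at 153, 107 and 196 CPM in embryonic LPS libraries. Adult libraries held 68.2, 83.9 and 66.0 CPM with PBS and 179, 179 and 205 CPM with LPS. The groups did not overlap in either stage, and the 2 adult LPS libraries at 179 CPM came from cultures 1 and 2. Fas had a log2 fold change of 1.84 ± 0.25 (edgeR adjusted p = 0.00493) in embryonic and 1.37 ± 0.25 (adjusted p = 0.0427) in adult cultures. Without both libraries of adult culture 2 the adult change of Fas was 1.50 (adjusted p = 0.228, and 0.0627 with the block).

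Tnfrsf1b, the TNF receptor without a death domain, varied widely among cultures. It was at 4.55, 17.5 and 39.8 CPM in embryonic PBS and at 46.3, 154 and 439 CPM in embryonic LPS libraries. Adult libraries held 52.9, 22.8 and 41.7 CPM with PBS and 267, 52.7 and 143 CPM with LPS. Within each culture the LPS library was higher, and the order of the cultures was the same with PBS and with LPS in both stages. Tnfrsf1b had a log2 fold change of 3.37 ± 0.98 (edgeR adjusted p = 0.131) in embryonic and 1.98 ± 0.92 (adjusted p = 0.935) in adult cultures. With the block it was 3.31 ± 0.20 (adjusted p = 2.59e-05) and 1.79 ± 0.19 (adjusted p = 0.00131). The pan-leukocyte marker Ptprc had the same order of cultures in all 4 groups, at 7.53, 9.76 and 59.2 CPM in embryonic PBS, 19.6, 64.5 and 162 CPM in embryonic LPS, 2.23, 0.337 and 0.545 CPM in adult PBS and 6.45, 0.554 and 2.38 CPM in adult LPS libraries. The summed macrophage markers, which include Ptprc, had this order in embryonic but not in adult libraries. The adult sums were 107, 54.3 and 44.9 CPM with PBS and 104, 45.1 and 39.8 CPM with LPS. Most of the sum in adult culture 2 was Mertk, at 44.4 CPM with PBS and 37.0 CPM with LPS. Apart from Mertk, each macrophage marker had the order of Tnfrsf1b in adult PBS libraries. In adult LPS libraries each did except Mertk and Fcgr3. With the block Ptprc was itself called higher with LPS in embryonic cultures. Cx3cr1 of the same list was called lower there, and the list median was -0.16. The part of leukocytes in the level of Tnfrsf1b was not tested.

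Tnfrsf14, a receptor shared by Tnfsf14 and lymphotoxin, was at 0.422, 0.274 and 1.38 CPM in embryonic PBS and at 1.12, 1.59 and 7.61 CPM in embryonic LPS libraries. In adult libraries it was at 0.44, 0.578 and 0.852 CPM with PBS and at 1.79, 1.54 and 1.73 CPM with LPS. The adult groups did not overlap, while embryonic culture 3 was above the others with either treatment. Tnfrsf14 had a log2 fold change of 2.31 ± 0.77 (edgeR adjusted p = 0.216, with the block 2.19 ± 0.30 and 0.0028) in embryonic and 1.42 ± 0.78 (adjusted p = 1, with the block 1.45 ± 0.31 and 0.0339) in adult cultures. The adult call of Tnfrsf14 with the block was lost without both libraries of adult culture 2 (1.47, adjusted p = 0.145).

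The receptors of Tnfsf10 had small LPS differences. Tnfrsf10b, the mouse TRAIL death receptor, was at 92.8, 95.5 and 50.6 CPM in embryonic PBS and 125, 121 and 84.6 CPM in embryonic LPS libraries, and at 78.4, 72.4 and 70.1 CPM in adult PBS and 101, 89.1 and 101 CPM in adult LPS libraries. Its log2 fold change with the block was 0.50 ± 0.09 (edgeR adjusted p = 0.0101, 0.533 without the block) in embryonic and 0.40 ± 0.09 (adjusted p = 0.0427, 1 without the block) in adult cultures. The adult call was lost without both libraries of adult culture 2 (0.44, adjusted p = 0.166 with the block).

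Tnfrsf23, a mouse decoy receptor for Tnfsf10, was at 55.2, 75.6 and 43.2 CPM in embryonic PBS and 64.0, 99.2 and 53.6 CPM in embryonic LPS libraries. Adult libraries held 65.3, 63.6 and 58.9 CPM with PBS and 67.8, 70.1 and 67.4 CPM with LPS. Its log2 fold change with the block was 0.31 ± 0.07 (edgeR adjusted p = 0.0242, 0.829 without the block) in embryonic and 0.13 ± 0.07 (adjusted p = 0.395) in adult cultures. The embryonic call was lost without both libraries of embryonic culture 3 (0.27, adjusted p = 0.0817 with the block) or of adult culture 2 (0.29, adjusted p = 0.0713). Tnfrsf22, Tnfrsf23 and Tnfrsf26 lie next to each other on chromosome 7 (143607685 to 143686436 for the 3 genes, GRCm38.p6) and are close paralogs. Only uniquely mapped reads were kept, so that reads fitting more than 1 of them may be missing from their counts.

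**Figure D3:**
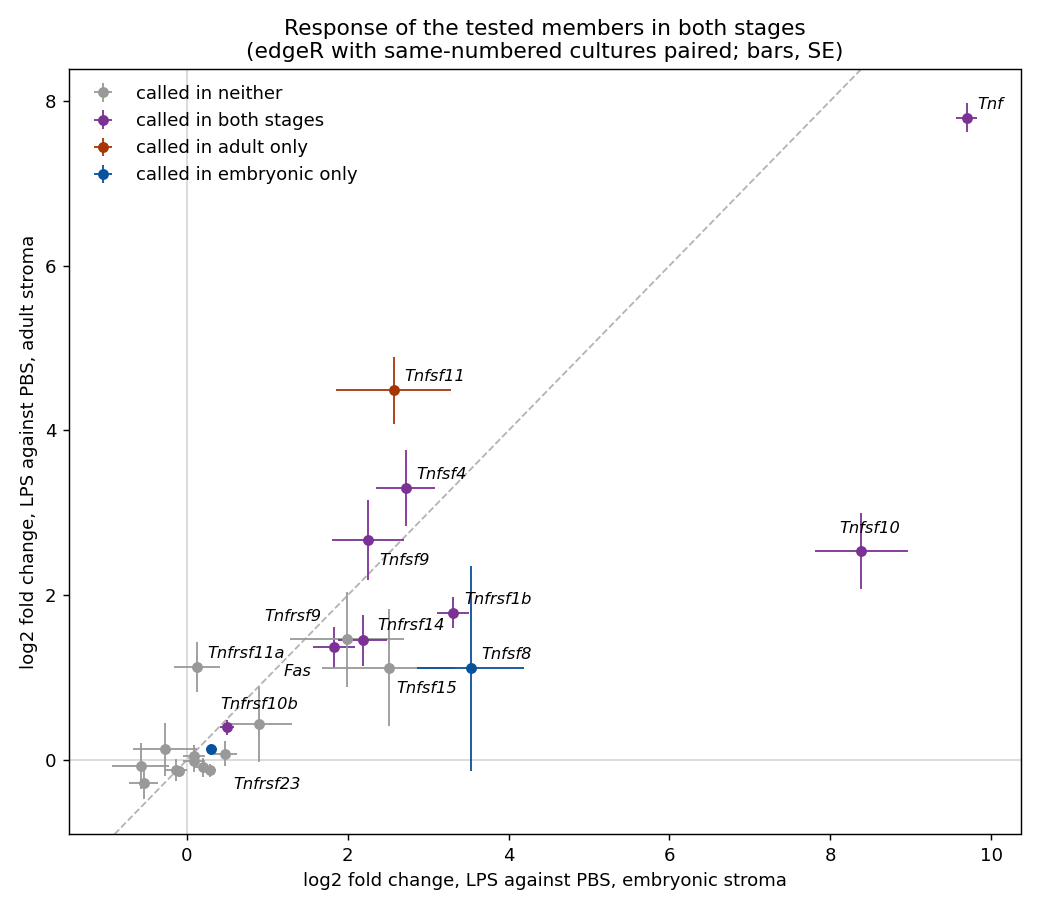
Log2 fold change of LPS against PBS in embryonic (horizontal) and adult (vertical) cultures for the 25 tested members, from the edgeR fit with the culture number as a block, with SE bars and the line of equal change dashed. Tnf and Tnfsf10 lie far to the right, at 9.70 and 8.38 in embryonic cultures, and Tnfsf11 lies above the line, at 4.49 in adult cultures.

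The difference between the stages in the response to LPS was tested as an interaction of stage and treatment. Without the block no member passed (0 of 25 and 0.0% of all genes), 1 member had an unadjusted p under 0.05, and DESeq2 called 0 members. With the block 2 members passed, against 0.844% of all genes. Tnfsf10 had a log2 difference of 5.84 ± 0.88 (embryonic minus adult, edgeR adjusted p = 0.0287), with 3.72, 2.75 and 1.54 in the adult and 5.34, 7.68 and 7.59 in the embryonic pairs on the scale of log2 CPM. Tnfrsf1b had a difference of 1.52 ± 0.26 (edgeR adjusted p = 0.0497), with 2.34, 1.21 and 1.77 in the adult and 3.33, 3.13 and 3.46 in the embryonic pairs. In each gene the embryonic and adult pairs did not overlap, which held for 8 of the 25 members (32.0%) and 15.5% of all genes. Of the 8, Tnf, Tnfsf8, Tnfsf10 and Tnfsf11 passed the filter only through LPS groups. Tnfsf8 did so only through embryonic LPS and Tnfsf11 only through adult LPS. Their place in this count was thus partly fixed by the filter. Neither interaction call was kept with the block when both libraries of embryonic culture 3 (6.25, adjusted p = 0.0729, for Tnfsf10 and 1.40, adjusted p = 0.108, for Tnfrsf1b) or of adult culture 2 (6.11, adjusted p = 0.128, and 1.25, adjusted p = 0.0879) were left out. The difference for Tnf was 1.94 ± 1.99 (edgeR adjusted p = 1) without and 1.90 ± 0.37 (adjusted p = 0.0847) with the block. Tnfrsf1a and Tnfrsf22 were higher with LPS in 3 of 3 embryonic and lower in 3 of 3 adult pairs, and 2.7% of all genes moved in opposite directions in this way.

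Among the 8 tested members whose pairs did not overlap between the stages, Tnfsf11 changed more in adult cultures. Its pairs changed by 0.61, 2.17 and 2.13 in embryonic and by 4.67, 3.78 and 3.63 in adult cultures on the scale of log2 CPM. The interaction was -1.95 ± 1.29 (edgeR adjusted p = 1) without and -1.91 ± 1.11 (adjusted p = 0.698) with the block, so that a difference between the stages was not shown.

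Between the stages without LPS, 1 of 25 members passed, against 4.08% of all genes called in either direction. Tnfrsf21, a death-domain receptor also called DR6, was at 17.8, 10.6 and 12.1 CPM in embryonic and at 4.29, 4.96 and 4.47 CPM in adult PBS libraries. Its log2 difference was 1.56 ± 0.35 (embryonic minus adult, edgeR adjusted p = 0.0373). This call was lost when any 1 adult library, PBS or LPS, or the embryonic PBS library of culture 1 or 3 was left out, with adjusted p values of up to 0.144 over all alternatives. The embryonic and adult PBS libraries did not overlap for 3 members higher in embryonic cultures (Tnf, Tnfrsf21 and Tnfsf4, against 12.4% of all genes) and 6 lower (Fas, Tnfrsf11b, Tnfrsf19, Tnfrsf1a, Tnfrsf9 and Tnfsf11, against 11.9%). Tnfrsf19 passed the filter only through adult groups, and Tnfrsf9 and Tnfsf11 only through adult LPS, so that their place here was partly fixed by it. The macrophage markers had a median log2 difference of 4.36 in the same comparison and the endothelial markers (4 of 6 tested) one of -7.05. Of the endothelial markers tested, Pecam1, Cdh5 and Emcn passed the filter only through adult groups. Adult PBS culture 1 had an endothelial sum of 19.9 CPM, within the 8.37 to 31.0 CPM of embryonic PBS libraries. The part of these cells in the levels of the members without overlap was not tested.

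With LPS 3 of 25 members differed between the stages, against 5.31% of all genes. With the culture number as a block across the stages, where the numbers did not pair the libraries, the counts were 1 with PBS (6.83% of all genes) and 5 with LPS (8.12%). Tnf was higher in embryonic libraries by 5.43 ± 1.15 on the log2 scale (edgeR adjusted p = 0.0279), Tnfrsf21 was higher by 1.39 ± 0.35 (adjusted p = 0.0484) and Tnfsf11 was lower, at -4.34 ± 0.70 (adjusted p = 0.0107). In LPS libraries Tnfrsf21 was at 16.1, 7.91 and 5.71 CPM in embryonic and at 3.52, 3.72 and 4.06 CPM in adult cultures. The call for Tnf was lost without both libraries of adult culture 2 (4.97, edgeR adjusted p = 0.102), and that for Tnfrsf21 likewise (1.38, adjusted p = 0.162). The call for Tnfsf11 was kept (-4.67, adjusted p = 0.0198). Tnfsf11 passed the filter only through adult LPS, and Tnfrsf19, called here only with the block, only through adult groups. Their calls with LPS, and the counts that hold them, were thus partly fixed by the filter. Leaving out any 1 adult LPS library reduced the count of 3 to 1.

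In LPS libraries the stages did not overlap for 4 members higher in embryonic cultures (Tnf, Tnfrsf21, Tnfsf18 and Tnfsf8, against 13.4% of all genes) and 2 lower (Tnfrsf19 and Tnfsf11, against 11.8%). Tnfsf8 passed the filter only through embryonic LPS, Tnfsf11 only through adult LPS and Tnfrsf19 only through adult groups. Their separation here was thus partly fixed by the filter, which all genes tested met. Tnfsf18 was at 296, 671 and 331 CPM in embryonic and 215, 293 and 182 CPM in adult LPS libraries (log2 difference 0.91 ± 0.33, edgeR adjusted p = 0.14). In PBS libraries it was at 302, 390.2 and 209.6 CPM in embryonic and 219, 238 and 187 CPM in adult cultures. Tnfrsf19, a receptor of the family expressed in progenitor cells of several tissues, was at 0.245, 1.04 and 0.194 CPM in embryonic and 1.56, 1.81 and 1.47 CPM in adult LPS libraries (-1.70 ± 0.55, edgeR adjusted p = 0.103). In PBS libraries it was at 0.603, 0.945 and 0.449 CPM in embryonic and 1.54, 1.73 and 1.81 CPM in adult cultures.

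Tnfrsf26, Tnfrsf13b and Tnfrsf11a stood apart in single cultures whose libraries also had the highest markers of another cell type. Tnfrsf26 was at 16.3 and 14.4 CPM in the PBS and LPS libraries of adult culture 2, the culture with the highest endothelial markers, and at no more than 2.33 CPM in the other 10 libraries. Tnfrsf13b, a receptor for Tnfsf13 and Tnfsf13b that is best known from B cells, was at 1.85 CPM in the PBS and 0.66 CPM in the LPS library of embryonic culture 3, where macrophage markers were highest, and at no more than 0.335 CPM elsewhere. Tnfrsf11a, the receptor of Tnfsf11, was at 20.2 and 18.5 CPM in the same embryonic culture and between 2.60 and 9.98 CPM in the other 10 libraries. In embryonic PBS cultures 1 and 2 it was at 8.80 and 2.74 CPM, beside macrophage sums of 214 and 322 CPM. Tnfsf15, a ligand of Tnfrsf25, was at 14.9, 193 and 7.71 CPM in embryonic PBS and at 231, 37.0 and 234 CPM in adult PBS libraries, beside summed mesothelial markers of 108, 445 and 109 CPM and of 975, 324 and 463 CPM. With LPS it was at 79.4, 256 and 258 CPM in embryonic and 301, 167 and 432 CPM in adult libraries, where the mesothelial markers were at 111, 361 and 121 CPM and at 1041, 270 and 437 CPM. The order of cultures for Tnfsf15 was not that of the mesothelial markers in any group. The part of these cells in the levels was not tested.

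**Figure D4:**
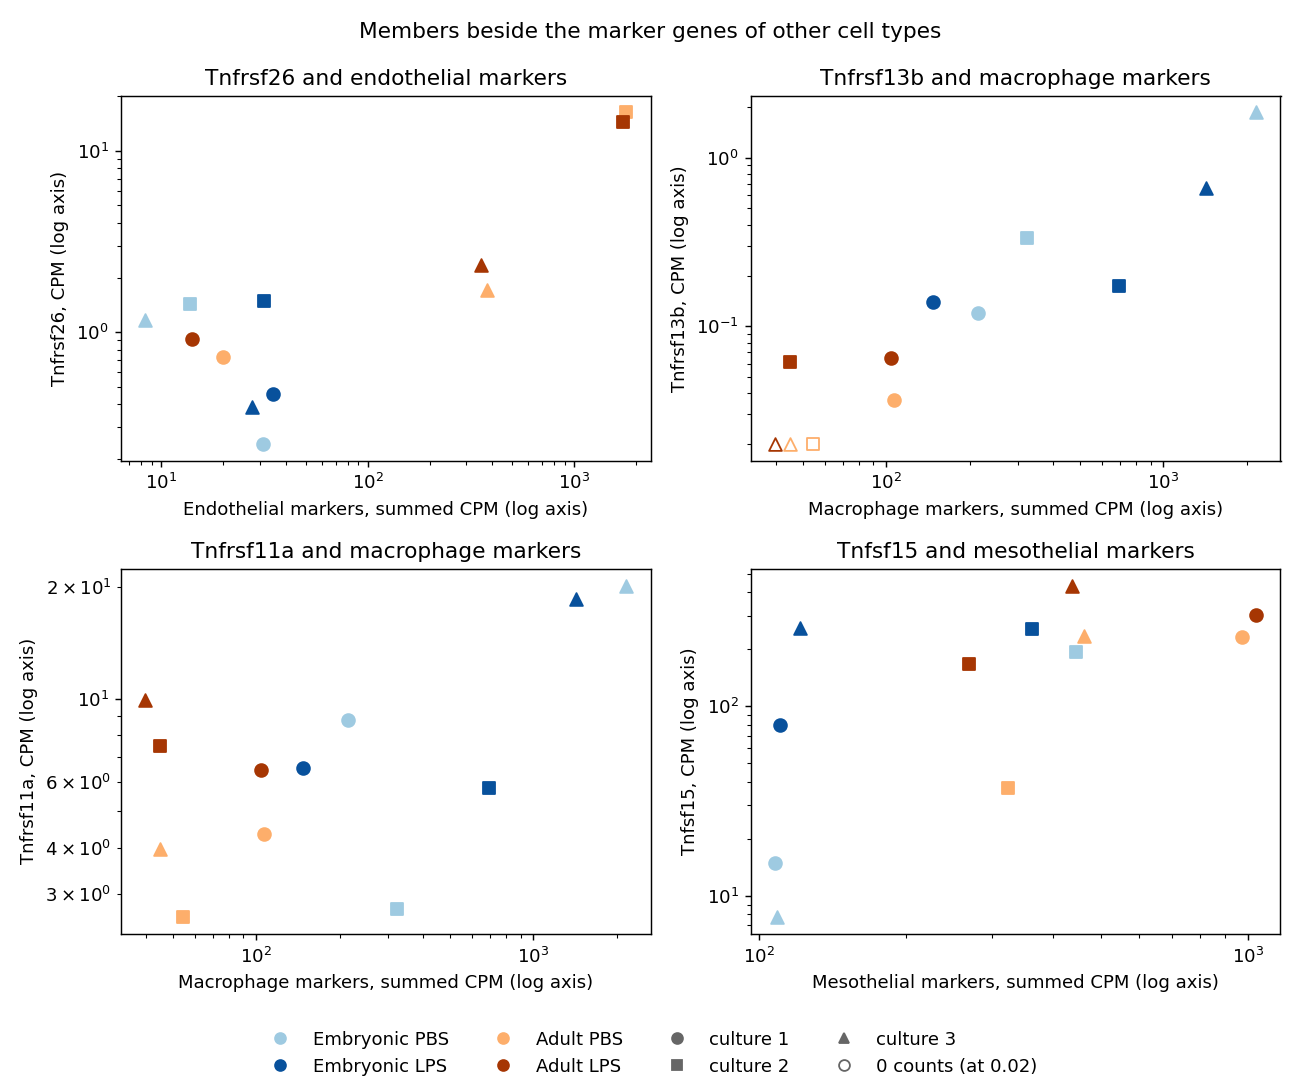
CPM of 4 members (log axis) against the summed CPM of marker genes of another cell type (log axis) in the 12 libraries, with colour for the group, symbol for the culture number, and open symbols for 0 counts drawn at 0.02. Both libraries of adult culture 2 stand apart for Tnfrsf26, at 16.3 and 14.4 CPM, and both of embryonic culture 3 for Tnfrsf13b and Tnfrsf11a.

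The 14 untested members reached at most 1.85 CPM in any library, and Tnfrsf17 was at 1 read in 1 library. Cd70, the ligand of Cd27, had no read in any of the 6 PBS libraries and was at 0.0351, 0.0345 and 0.155 CPM in embryonic and 0.293, 0.431 and 0.0864 CPM in adult LPS libraries. In adult cultures the LPS level of Cd70 was at least 2.27-fold higher than a floor of 3 reads per PBS library, for counting error only. Tnfrsf8, the receptor of Tnfsf8, had 4 reads in all adult PBS and 62 in all adult LPS libraries, a ratio of 13.9 per depth (exact 95% counting interval 5.16 to 52.6). The adult LPS libraries held 39, 4 and 19 of these reads, and the ratio was 7.99 (2.73 to 31.8) without that of culture 1 and 20.8 (7.71 to 79.0) without that of culture 2. The lymphotoxin ligands Lta and Ltb stayed at or under 0.427 and 0.256 CPM, while their receptor Ltbr was at 82.7 to 108 CPM. Tnfsf13b, the B cell survival factor, was at 0.814, 0.183 and 1.38 CPM in embryonic PBS and 0.666, 0.0691 and 1.17 CPM in embryonic LPS libraries. In adult libraries it was at 0.366, 0.0964 and 0.205 CPM with PBS and 0.879, 0.215 and 0.821 CPM with LPS. The pairs of Tnfsf13b pointed down in 3 of 3 embryonic and up in 3 of 3 adult cultures, but in the edgeR fit with no filter on low counts the interaction was -1.80 ± 1.35 (adjusted p = 1) and did not pass. Tnfsf13, a ligand of Tnfrsf13b, was at 0.0388 to 0.151 CPM in the embryonic and 0.246 to 0.554 CPM in the adult libraries. With LPS its summed reads were 6.17 times as many per depth in adult cultures (exact 95% counting interval 2.39 to 20.3), and in the fit with no filter the difference was -2.56 ± 0.58 (embryonic minus adult, edgeR adjusted p = 0.0424). Tnfrsf25, the receptor of Tnfsf15, was at no more than 0.117 CPM in embryonic libraries and at 0.17 to 0.623 CPM in adult ones (-2.80 ± 0.83 with PBS, edgeR adjusted p = 0.109, with no filter). Tnfrsf4, the receptor of Tnfsf4, was at 0.0897 to 1.14 CPM and Cd27 at 0.0864 to 0.315 CPM over all libraries. Fasl, Tnfsf14, Tnfrsf13c and Tnfrsf17 stayed at or under 0.105 CPM in every library.

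Superfamily genes whose symbols the rule does not match were counted as a list of 7, of which 5 were tested. Cd40, a receptor of antigen-presenting cells, rose with LPS in embryonic cultures by 4.36 ± 0.83 on the log2 scale (edgeR adjusted p = 0.0202), from 10.7 ± 8.52 to 220 ± 192 CPM (SD, n = 3). The embryonic LPS libraries held 97.7, 121 and 442 CPM of Cd40, with the highest in culture 3, where macrophage markers were highest, and their part in its level was not tested. Without both libraries of that culture the change of Cd40 was 3.05 (edgeR adjusted p = 0.151). In adult cultures it went from 1.51 ± 1.27 to 16.9 ± 4.88 CPM (3.51 ± 0.84, edgeR adjusted p = 0.133, with the block 3.58 ± 0.82 and 0.0426), and without both libraries of adult culture 2 the change with the block was 4.17 (adjusted p = 0.112). Cd40 was also higher in embryonic than in adult LPS libraries (3.70 ± 0.80, edgeR adjusted p = 0.0294), a call that was lost without both libraries of embryonic culture 3 (2.66, adjusted p = 0.0659) or of adult culture 2 (3.85, adjusted p = 0.0815). None of the other 4 passed in any comparison. The median log2 fold change of the list was -0.23 in embryonic and -0.09 in adult cultures.

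Genes that act below the receptors were taken as lists. Their counts stand against 2.67% of all genes called higher and 0.0767% lower in embryonic cultures, and 0.598% higher and 0.00767% lower in adult cultures. In the 6 lists including that of Cd40, 5 of 14 embryonic calls were lost without both libraries of embryonic culture 3 (Birc2, Cd40, Mlkl, Tnfaip3 and Traf1), 4 of 14 without both of adult culture 2 (Birc2, Mlkl, Rhbdf2 and Rnf31), and 8 of 8 adult calls without both of adult culture 2, in fits without the block. With the block Traf2 was the 1 call lost of 18 in embryonic cultures, in either case, and Cd40 the 1 lost of 12 in adult cultures, without adult culture 2. Of the 8 adaptors, 3 rose in embryonic (Traf1, Traf3 and Tank) and 2 in adult cultures (Traf3 and Tank), and none fell (2.67% and 0.598% of all genes were called higher), at medians of 0.50 and 0.46. Traf1, an NF-kB-induced adaptor, went from 0.121 ± 0.0803 to 43.6 ± 40.8 CPM in embryonic cultures (8.45 ± 1.29, edgeR adjusted p = 0.00821) and from 0.769 ± 0.796 to 5.82 ± 1.11 CPM in adult cultures (2.96 ± 1.00, adjusted p = 0.472, with the block 3.11 ± 0.53 and 0.0138). It passed the filter only through LPS groups, so that its rise, and the adaptor counts that hold it, were partly fixed by the filter. Traf1 was at 11.9, 29.4 and 89.6 CPM in the embryonic LPS libraries, in the order of the macrophage markers, whose part was not tested, and without both libraries of culture 3 its change was 7.50 (edgeR adjusted p = 0.0522). Traf3, a brake on the non-canonical pathway, rose by 0.74 ± 0.09 (edgeR adjusted p = 0.00286) and 0.60 ± 0.09 (adjusted p = 0.0175). Tank, a TRAF-binding scaffold, rose by 1.39 ± 0.16 (edgeR adjusted p = 0.00227) and 0.91 ± 0.16 (adjusted p = 0.0309) and was higher in embryonic LPS libraries than in adult ones (0.98 ± 0.16, adjusted p = 0.0102). With the block Traf2 joined in embryonic cultures (0.71 ± 0.18, edgeR adjusted p = 0.0378).

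Of the ubiquitin enzymes and their binders, 9 of 10 were tested. In embryonic cultures 5 rose (Birc2, Birc3, Rnf31, Tnfaip3 and Tnip1) and in adult cultures 3 (Birc2, Birc3 and Tnip1), none fell (2.67% and 0.598% of all genes were called higher), and the medians were 1.24 and 0.41. Birc3, a ubiquitin ligase recruited through TRAFs, rose by 3.40 ± 0.31 (edgeR adjusted p = 0.000916) in embryonic and 2.45 ± 0.30 (adjusted p = 0.00683) in adult cultures. Tnip1, which binds A20 (the product of Tnfaip3), rose by 1.93 ± 0.27 (edgeR adjusted p = 0.00578) and 2.30 ± 0.28 (adjusted p = 0.00683). Tnfaip3 itself rose by 3.26 ± 0.59 (edgeR adjusted p = 0.0171) in embryonic cultures and was at 3.08 ± 0.59 (adjusted p = 0.052, with the block 3.01 ± 0.51 and 0.0135) in adult ones. Birc2 rose by 1.24 ± 0.25 (edgeR adjusted p = 0.0273) and 1.46 ± 0.25 (adjusted p = 0.0323). Rnf31, a subunit of the linear ubiquitin ligase, rose in embryonic cultures by 1.82 ± 0.34 (edgeR adjusted p = 0.02) and was at 0.41 ± 0.33 (adjusted p = 1) in adult ones.

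Of 6 genes of the death branch, Bid and Mlkl rose in embryonic and Bid in adult cultures (2.67% and 0.598% of all genes were called higher), at medians of 0.97 and 0.41. Bid, which links caspase 8 to the mitochondria, rose by 1.68 ± 0.24 (edgeR adjusted p = 0.00653) and 1.84 ± 0.25 (adjusted p = 0.0101). Mlkl, the executor of necroptosis, went from 2.30 ± 1.59 to 18.1 ± 14.2 CPM in embryonic cultures (2.97 ± 0.68, edgeR adjusted p = 0.0498), and its PBS level was lower in embryonic than in adult libraries, which held 16.0 ± 5.19 CPM (-2.79 ± 0.68, adjusted p = 0.0494). Mlkl was at 6.66, 13.6 and 33.9 CPM in the embryonic LPS libraries, also in the order of the macrophage markers, whose part was not tested, and without both libraries of culture 3 its change was 2.09 (edgeR adjusted p = 0.411). The PBS difference of Mlkl was then -2.80 (adjusted p = 0.0691), and -2.54 (adjusted p = 0.143) without both libraries of adult culture 2. With the block Cflar, an inhibitor of caspase 8, and Casp8 joined in embryonic cultures (1.31 ± 0.30, edgeR adjusted p = 0.0265, and 0.56 ± 0.08, adjusted p = 0.00411). Of 4 genes of the non-canonical NF-kB route, Nfkb2 and Relb, its transcription factors, rose in both stages and none fell, at medians of 1.24 and 0.96. Nfkb2 rose by 2.54 ± 0.29 (edgeR adjusted p = 0.00227) and 2.15 ± 0.29 (adjusted p = 0.0101), and Relb by 2.71 ± 0.29 (adjusted p = 0.00188) and 2.05 ± 0.29 (adjusted p = 0.0128). Of the 3 sheddase genes, Rhbdf2, a trafficking partner of the protease Adam17 that sheds Tnf, rose in embryonic cultures by 1.85 ± 0.35 (edgeR adjusted p = 0.02), and the list medians were 0.66 and 0.35. In adult cultures it was at 1.21 ± 0.34 (adjusted p = 0.261, with the block 1.20 ± 0.14 and 0.00198). Adam17 was at 0.66 ± 0.28 (edgeR adjusted p = 0.408, with the block 0.64 ± 0.08 and 0.00196) in embryonic and 0.24 ± 0.28 (adjusted p = 1) in adult cultures.

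The libraries held between 18850224 and 32672370 reads on genes, so that 3 reads, the upper limit that a count of 0 allows, corresponded to 0.0897 to 0.145 CPM. Levels of Tnfsf10, Tnfsf11 and Tnfsf8 in PBS libraries lay near or under this floor in many libraries, and their fitted fold changes depended on it. Tnfsf12 and Tnfsf13 share a read-through transcript on chromosome 11, so that their reads may be split.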

How the data were processed

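PolyA RNA of 12 libraries (3 per group) was sequenced by the authors as stranded single-end reads. The authors trimmed reads with Trim Galore, aligned them with STAR to GRCm38 (mm10 in the submitters' processing notes) with at most 1 mismatch, and kept uniquely mapped reads. The deposited counts are whole reads per gene, listed for both strands, and the sense column was used. Rows that name no gene held 17.4 to 19.9% of counts and were left out. Same-numbered libraries share a prefix in the deposited table whose meaning is not given in the sources used here.

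Genes over 0.5 CPM in all libraries of at least 1 group (13038) were scaled by TMM and fitted in 1 edgeR 4.0.16 quasi-likelihood model of the 4 groups (R 4.3.3), two-sided, with Benjamini-Hochberg adjustment over all genes. Levels are CPM, and pair changes are on log2 CPM with a prior count of 2. Without the block, p-values measure the spread between libraries of a group, with the PBS and LPS libraries of a culture treated as independent. With the block within a stage, they measure the spread of the LPS change between cultures. Same-numbered libraries within a stage deviated together (correlations of deviations 0.759, 0.784 and 0.710 in embryonic and 0.803, 0.850 and 0.610 in adult cultures), so the culture number is given as a block beside a result it changes. Intervals and floors cover counting error only. Full statistics were given for members called in any comparison with or without the block and for Tnf, Tnfsf10, Tnfsf11 and Fas. In the pathway lists the called genes were named where there were 5 or fewer. Members and lists were chosen with earlier results of these data known. Alternatives were DESeq2 1.42.0, other scaling, filters and thresholds, counts on either strand, 2-group fits and left-out libraries. Promoters and gene positions came from RefSeq tables of GRCm38.p6, and exon lengths from GENCODE.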

Additional observations from a re-analysis of the deposited data

Results flagged for a closer look

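With the culture number as a block, the response to LPS differed between the stages for Tnfsf10, by 5.84 on the log2 scale (embryonic minus adult, edgeR adjusted p = 0.0287), and for Tnfrsf1b, by 1.52 (adjusted p = 0.0497). Without the block the differences were 5.79 and 1.39 and did not pass. With the block they did not pass without both libraries of embryonic culture 3 (6.25 and 1.40) or of adult culture 2 (6.11 and 1.25).

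In 2 of the 25 tested members, Tnfrsf1a and Tnfrsf22 (against 2.7% of all genes), and in Tnfsf13b, which was under the filter on low counts, every same-numbered pair moved one way in embryonic and the opposite way in adult cultures. The mean pair change of Tnfrsf1a was 0.41 higher in embryonic than in adult cultures on the log2 scale, with an edgeR adjusted p of 0.257 for the interaction with the block. That of Tnfrsf22 was 0.29 higher, with an edgeR adjusted p of 0.682. That of Tnfsf13b differed by -1.65, and in the edgeR fit with no filter its interaction was -1.80 ± 1.35 (adjusted p = 1).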

How the results depend on the processing

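Members called numbered 3 for LPS in embryonic cultures, 3 for LPS in adult cultures, 0 for the interaction, 1 between the stages with PBS and 3 between the stages with LPS. In the same order the counts were 6, 5, 0, 4 and 6 with DESeq2, and 2, 0, 0, 0 and 0 at an adjusted p under 0.01. With a threshold of 2 on the size of the log2 fold change they were 2, 2, 0, 0 and 2. With only the 2 groups compared in the fit they were 0 and 4 for LPS in embryonic and adult cultures and 0 and 0 between the stages. With the replicate block they were 10, 9, 2, 1 and 5. The numbers did not pair libraries across stages (correlations of -0.306 to -0.0022), and there the block added Tnfsf18 (0.86 ± 0.19, edgeR adjusted p = 0.032) and Tnfrsf19 (-1.90 ± 0.47, adjusted p = 0.0466) with LPS. Other scaling, other filters and counts on either strand kept each count between 1 and 3, and the interaction at 0. Leaving out 1 library at a time gave 2 to 4, 0 to 3, 0 to 0, 0 to 3 and 1 to 4 members. The following alternatives were chosen after seeing the data. Without both libraries of embryonic culture 3, where macrophage markers were highest, the counts were 3, 3, 0, 1 and 3, and 8, 9, 0, 0 and 1 with the replicate block. Without both libraries of adult culture 2, where endothelial markers were highest, they were 3, 0, 0, 0 and 1, and 9, 6, 0, 4 and 6 with the replicate block. Leaving out these cultures for the pathway lists, and single adult LPS libraries for Tnfrsf8, was also chosen then. Except where fewer libraries or a stricter threshold were used by construction, the cause was not tested. For the 26 log2 fold changes followed, none of 647 alternative values changed sign. Depth limited Tnfsf10, Tnfsf11 and Tnfsf8 in PBS libraries, several of which held 0 to 4 reads.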
